A study of Arabidopsis thaliana with 6 samples.

Results

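The genes described here carry out methionine chain elongation, the first stage of aliphatic glucosinolate synthesis in Arabidopsis thaliana. They were read by 9 probe sets taken by their identifiers from 22810 on the Affymetrix ATH1 array, a 1-colour oligonucleotide array that reads a transcript near its 3′ end. The comparison set 3 arrays of the apk1 apk2 double mutant against 3 arrays of the wild type Col-0. The mutant came from a cross of the insertion lines salk_053427 and salk_093072, and its labels give both APS kinase genes APK1 and APK2 as mutated. No single mutant and no second double mutant line was among the 6 arrays, so the mutant stands for 1 allele combination. Each array held RNA from a pool of 10 whole rosettes, cut without roots at 35 days, 4 h into a 10 h day at 22 °C. Expression was thus read from all leaf cell types together. P-values here rest on the spread between 3 such pools per genotype. Those from limma, and its intervals, also borrow from all tested probe sets, because each gene's variance is drawn towards theirs.

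Glucosinolates are sulfur-rich defence compounds of the Brassicales. For the aliphatic class, methionine is first turned into a 2-oxo acid in the cytosol, imported into the plastid, and lengthened by a cycle of condensation with acetyl-CoA, isomerisation and oxidative decarboxylation that resembles leucine synthesis. The lengthened acid is transaminated back to an amino acid and then enters core glucosinolate synthesis, whose last step takes sulfate from PAPS, the product of APS kinase. The comparison asks what happens to transcripts of these early steps when 2 of the 4 Arabidopsis APS kinases are lost. The names follow the definition of the gene set, because the probe table used here pairs 1 of the 9 probe sets, that of BCAT4, with a gene. In the gene table of assembly TAIR10.1, MAM3 is listed as IMS2 and BASS5 as BAT5, and MAM1 (AT5G23010) and MAM3 (AT5G23020) lie on chromosome 5 with 0 gene records between them. IMD is read by a probe set of the _s_at kind, which can bind several related transcripts, and is treated as a reading of the isopropylmalate dehydrogenase family rather than of 1 gene.

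Every step of the pathway was higher in the double mutant. With limma and a threshold of 0.05 on the adjusted p, 9 of the 9 were called higher in apk1 apk2 and 0 lower. Of the 13848 tested probe sets, 5.79% were called higher and 5.55% lower. The lowest mutant array exceeded the highest wild-type array for 9 of 9, against 13.0% of all tested probe sets. At least 2-fold increases were seen for 8 of 9, against 1.81% of tested probe sets that were called with such an increase. The median log2 change of the 9 was 1.68, and that of all tested probe sets −0.02. All 9 reached the limit for low signal, the array's 40th percentile (16.9 to 19.4 signal units), on all 6 arrays, so none entered the test through 1 genotype alone. In RNA from whole rosettes, more cells of a type that expresses the genes and more RNA per cell cannot be told apart.

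**Figure D1:**
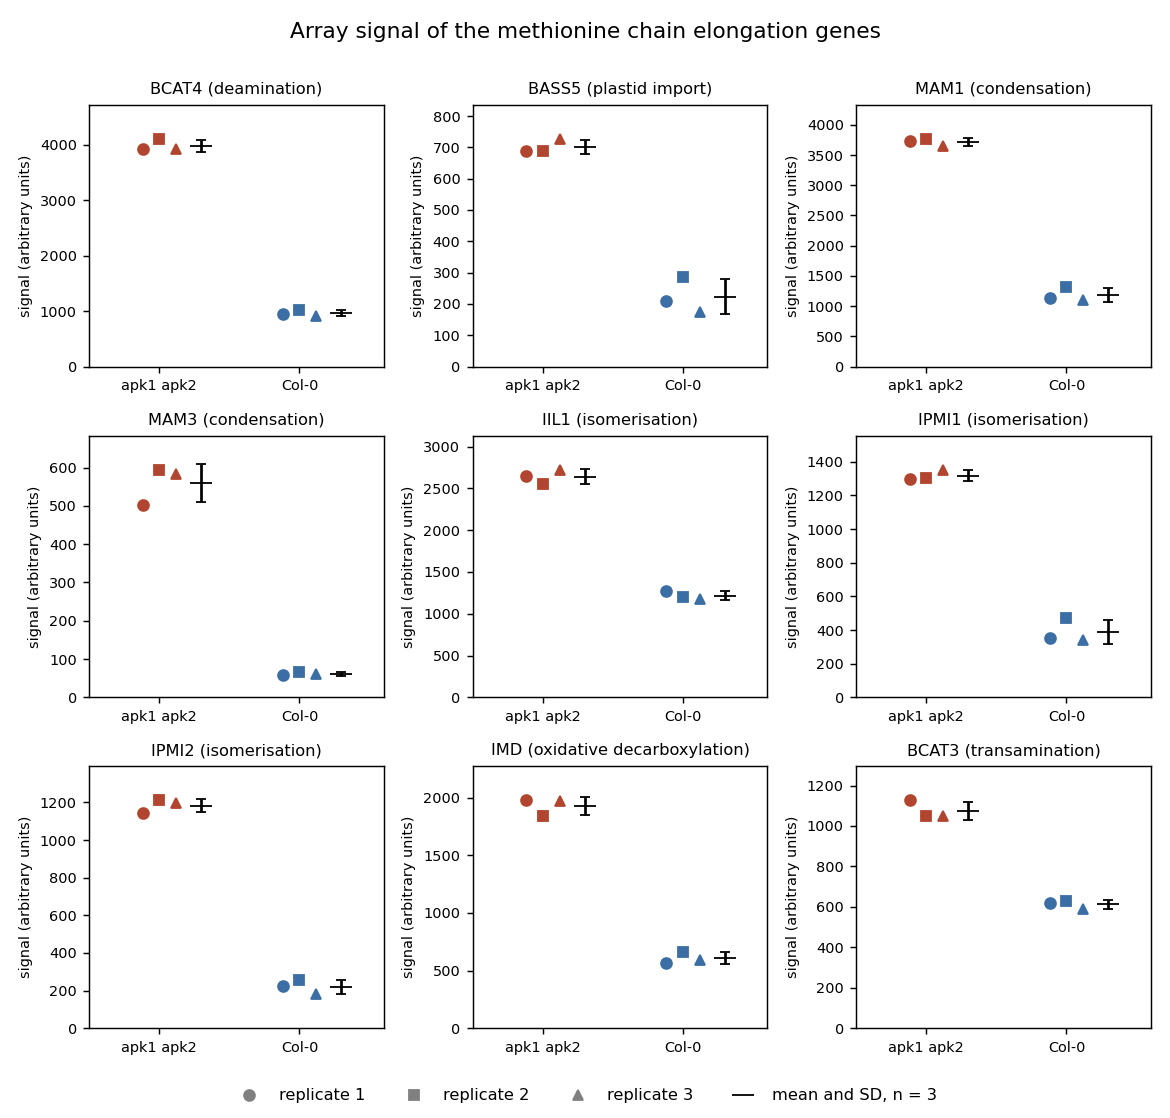
Array signal of the 9 genes in pathway order (linear axis from 0, arbitrary units), with apk1 apk2 left of Col-0 in each panel. Symbols are the 3 replicates of a genotype and the black bar is their mean ± SD; the genotypes do not overlap in any of the 9 panels.

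The pathway starts in the cytosol with BCAT4 (probe set 257021_at), the aminotransferase that removes the amino group of methionine. Its signal was 3916, 4105 and 3923 in the mutant arrays, against 953, 1026 and 915 in the wild-type arrays. The replicates lay close together in both genotypes, and the lowest mutant array stood 3.82-fold above the highest wild-type array. The fitted rise was 4.13-fold (95% interval 3.69 to 4.63, limma, adjusted p = 3.43e-09).

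BASS5 (254862_at), a transporter of the plastid envelope that brings in the 2-oxo acid, had 689, 690 and 727 in the mutant arrays, against 210, 286 and 174 in the wild-type arrays. The wild-type arrays were spread more widely than the mutant arrays, with replicate 2 the highest and replicate 3 the lowest. The rise was 3.21-fold (95% interval 2.60 to 3.96, limma, adjusted p = 4.46e-06), the widest interval relative to its size among the 9 genes. The log2 change of BASS5 was 1.68 with all arrays, 1.88 without wild-type replicate 2 and 1.52 without wild-type replicate 3, and it passed the test in both cases.

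The condensation step held the largest rise of the 9 genes. MAM3 (249867_at), a methylthioalkylmalate synthase needed for long-chain glucosinolates, had 502, 595 and 582 in the mutant arrays, against 57.3, 67.3 and 59.7 in the wild-type arrays. Its wild-type signal was low but above the limit on all 3 arrays, and even the lowest mutant array, replicate 1, stood 7.46-fold above the highest wild-type array. MAM3 rose 9.10-fold (95% interval 7.77 to 10.7, limma, adjusted p = 1.20e-09). Its log2 change was 3.19 without an offset and 2.89 when an offset of 16 was added to the signals. The interval does not cover this choice of processing. MAM1 (249866_at), the neighbouring gene, whose enzyme makes the short chains, had 3729, 3768 and 3651 in the mutant arrays, against 1137, 1309 and 1096 in the wild-type arrays. Mutant replicates differed little here, and the genotypes were well apart. The rise of MAM1 was 3.16-fold (95% interval 2.79 to 3.57, limma, adjusted p = 4.81e-08).

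Isopropylmalate isomerase moves the hydroxyl group before decarboxylation and consists of a large and a small subunit. The small subunits IPMI1 (251524_at) and IPMI2 (266395_at) are the ones known from methionine chain elongation, whereas the large subunit IIL1 (254742_at) also serves leucine synthesis. IPMI2 had 1143, 1210 and 1195 in the mutant arrays, against 222, 257 and 181 in the wild-type arrays, a rise of 5.43-fold (95% interval 4.59 to 6.42, limma, adjusted p = 2.85e-08). IPMI1 had 1297, 1301 and 1353 in the mutant arrays, against 352, 469 and 343 in the wild-type arrays, a rise of 3.43-fold (95% interval 2.91 to 4.03, limma, adjusted p = 2.79e-07). Both small subunits had tight mutant values and a wild-type replicate 2 above the other wild-type arrays. IIL1 had 2652, 2547 and 2724 in the mutant arrays, against 1272, 1205 and 1171 in the wild-type arrays. Its rise, 2.17-fold (95% interval 1.94 to 2.43, limma, adjusted p = 5.81e-07), had an interval that lay below those of both small subunits.

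Isopropylmalate dehydrogenase, read by the IMD probe set (263706_s_at), oxidises and decarboxylates the lengthened acid. Its signal was 1977, 1844 and 1971 in the mutant arrays, against 566, 663 and 595 in the wild-type arrays. The rise of 3.18-fold (95% interval 2.81 to 3.60, limma, adjusted p = 4.74e-08) was close in size to those of BASS5 and MAM1. Which of the family's transcripts contributed to it cannot be read from this probe set.

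BCAT3 (252274_at), a plastid aminotransferase that acts at the end of chain elongation and also in branched-chain amino acid synthesis, had the smallest change. It had 1126, 1051 and 1047 in the mutant arrays, against 617, 631 and 588 in the wild-type arrays. The genotypes still did not overlap, with the lowest mutant array 1.66-fold above the highest wild-type array. The rise was 1.76-fold (95% interval 1.57 to 1.97, limma, adjusted p = 1.28e-05).

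**Figure D2:**
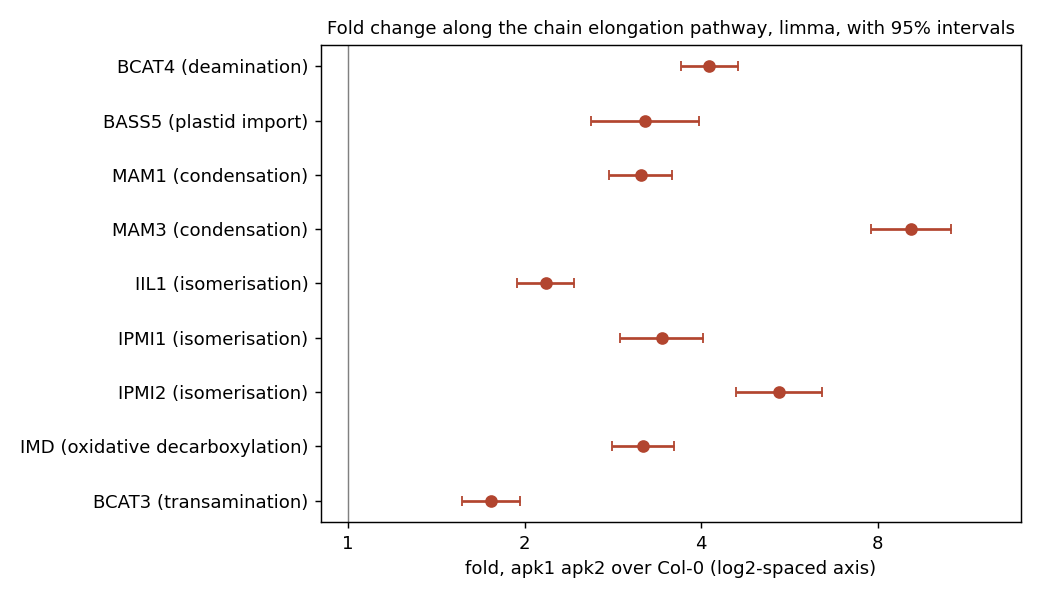
Fold change of apk1 apk2 over Col-0 for each gene in pathway order on a log2-spaced axis, with 95% intervals from limma (n = 3 arrays per genotype). MAM3 at 9.10-fold lies furthest right, IIL1 at 2.17-fold and BCAT3 at 1.76-fold furthest left, and 4 genes sit between 3.16-fold and 3.43-fold.

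Ordered by fold, MAM3 was followed by IPMI2, BCAT4, IPMI1, BASS5, IMD, MAM1, IIL1 and BCAT3. The 4 genes from IPMI1 to MAM1 had intervals that overlapped widely, and no ranking among them is drawn. Overlap of intervals is not a test of a difference between genes, which were read on the same arrays. The intervals of MAM3 and IPMI2 did not overlap, while that of BCAT4 touched those of IPMI2, IPMI1 and BASS5. Those of IIL1 and BCAT3 overlapped each other and no other gene's. Ranked by log2 change among all 13848 tested probe sets, 7 of the 9 were among the 100 largest rises, with MAM3 at rank 15, IIL1 at rank 222 and BCAT3 at rank 392.

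**Figure D3:**
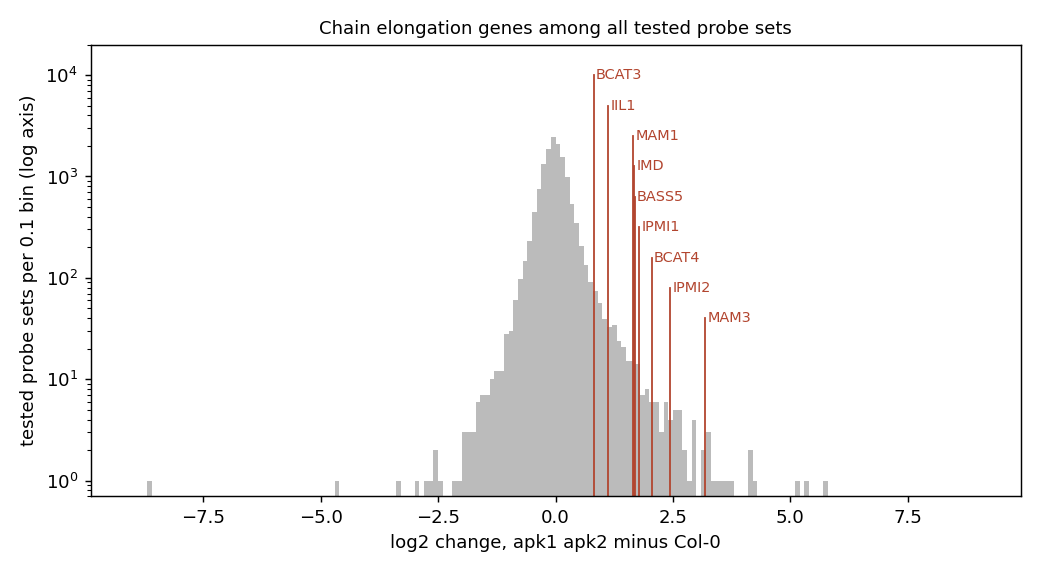
Histogram of the log2 change of apk1 apk2 minus Col-0 for all 13848 tested probe sets (bins of 0.1, log count axis), with red lines at the 9 chain elongation genes. All 9 lines lie on the right, from 0.81 for BCAT3 to 3.19 for MAM3.

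Differences between steps were compared through the ratio of 2 genes' signals within each array, for 8 pairs that follow the pathway or share a step. The ratio does not give relative transcript amounts, because probe sets differ in brightness, and a shift of it between genotypes is given as a description of how the 2 signals moved relative to each other. An exact two-sided permutation test of 3 against 3 arrays cannot give a p under 0.1. For 7 of the 8 pairs the genotypes did not overlap and the exact permutation p was this smallest value of 0.1, or 0.114 after Benjamini-Hochberg adjustment over the 8 pairs, so no pair passed 0.05. Several pairs share a gene and all were read on the same arrays, so they are not separate readings. No share over pairs of other probe sets is given beside this count.

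The largest shift was within the condensation step. The log2 ratio of MAM3 over MAM1 averaged −2.74 ± 0.14 in the mutant and −4.26 ± 0.058 in the wild type (SD, n = 3), a ratio 2.88-fold higher in the mutant. Between the aminotransferases that open and close the pathway, the log2 ratio of BCAT3 over BCAT4 averaged −1.89 ± 0.085 in the mutant and −0.65 ± 0.040 in the wild type. The difference was −1.23, a ratio 2.35-fold lower in the mutant. Both shifts were larger than the SD between replicates in either genotype. The permutation test could not reach 0.05 for either, whatever the shift.

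Within isopropylmalate isomerase both ratios between subunits were higher in each mutant array than in any wild-type array, without passing the test. The log2 ratio of IPMI1 over the large subunit IIL1 was −1.03, −0.97 and −1.01 in the mutant arrays, against −1.85, −1.36 and −1.77 in the wild-type arrays, a difference of 0.66. That of IPMI2 over IPMI1 was −0.15 ± 0.044 in the mutant and −0.82 ± 0.14 in the wild type (SD, n = 3), also a difference of 0.66. The ratio of IIL1 over MAM1, which precedes it, shifted by −0.54, and that of IMD, which follows it, over IIL1 shifted by 0.55.

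The remaining pairs shifted less. BASS5 over BCAT4 shifted by −0.36, with −2.51, −2.57 and −2.43 in the mutant arrays and −2.18, −1.84 and −2.39 in the wild-type arrays. The groups did not overlap, but wild-type replicate 3 lay next to the mutant arrays. The shift was −0.22 without wild-type replicate 2 and −0.49 without wild-type replicate 3. MAM1 over BASS5 shifted by −0.024 with overlapping groups (exact permutation p = 0.90), and its sign turned when an offset of 16 was added to the signals (0.034) or an array was left out (0.015 without mutant replicate 3 and 0.089 without wild-type replicate 3).

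**Figure D4:**
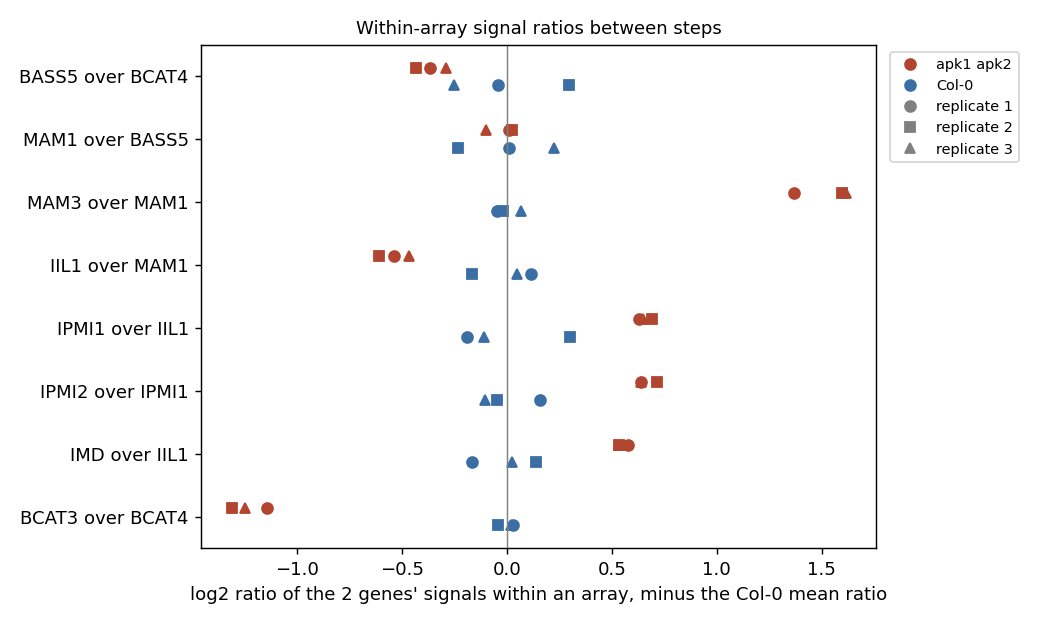
Log2 ratio of 2 genes' signals within an array, minus the mean ratio of the Col-0 arrays, for the 8 pairs, with apk1 apk2 drawn above Col-0 in each row and symbols for replicates. The mutant arrays lie 1.53 to the right for MAM3 over MAM1 and 1.23 to the left for BCAT3 over BCAT4 on average, and overlap Col-0 for MAM1 over BASS5 alone.

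Most of the genes had the same highest and the same lowest wild-type array. Wild-type replicate 2 had the highest wild-type signal for 8 of 9 genes, where it was the highest for 33.0% of all tested probe sets, and IIL1 was the exception. Wild-type replicate 3 had the lowest for 7 of 9, against 30.9% of tested probe sets. All the genes were read on the same arrays, so these counts are not independent readings. The deviations were largest for BASS5, whose log2 signal lay 0.39 above the wild-type mean in replicate 2 and 0.33 below it in replicate 3, and small for BCAT3, at 0.045 above and 0.057 below. In the mutant the highest array was replicate 1 for 2 genes, replicate 2 for 4 and replicate 3 for 3, against 32.7%, 36.7% and 30.6% of all tested probe sets. The lowest mutant array was replicate 1 for 5 genes and each of the other replicates for 2, against 32.0%, 33.5% and 34.5% of tested probe sets.

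On the log2 scale the SD between mutant arrays was smaller than that between wild-type arrays for 7 of 9 genes, where this held for 44.4% of tested probe sets. The median SD of the 9 was 0.045 in the mutant and 0.12 in the wild type, against 0.16 in the mutant and 0.14 in the wild type over all tested probe sets. The exceptions were MAM3, with 0.13 in the mutant and 0.12 in the wild type, and BCAT3, with 0.059 in the mutant and 0.052 in the wild type. The comparison was not matched for brightness. Among tested probe sets, the wild-type signals stood at the 77.4th (IPMI2) to 96.4th (IIL1) percentile, except MAM3 at the 38.2th. The genes were also brighter in the mutant than in the wild type. No test was made of this difference in spread or of the part that brightness had in it.

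**Figure D5:**
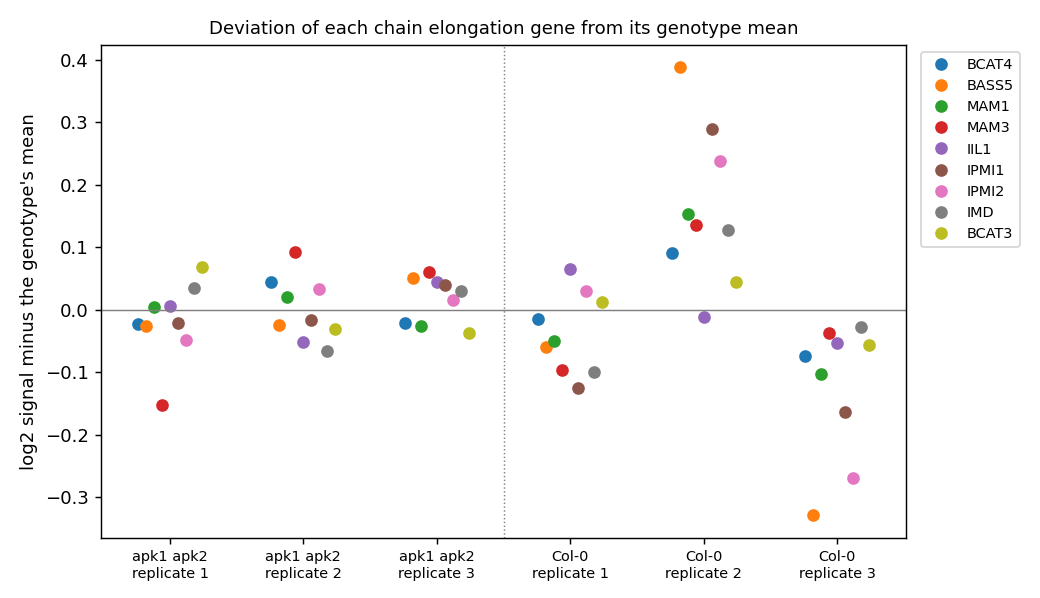
Log2 signal of each gene minus the mean of its genotype, by array, with the 3 apk1 apk2 arrays left of the 3 Col-0 arrays and 1 colour per gene. In Col-0 replicate 2, 8 of 9 points lie above 0 and BASS5 reaches 0.39; in Col-0 replicate 3, 9 of 9 lie below 0.

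Genes of neighbouring pathways were described from lists, of which few members have a named probe set here. On the list for branched-chain amino acid synthesis, whose leucine branch resembles chain elongation, 5 of 14 genes were tested. With limma 0 were called higher and 1 lower. At an unadjusted p under 0.05 these counts were also 0 and 1. Their median log2 change was −0.10. KARI, the ketol-acid reductoisomerase, had 1505, 1494 and 1468 in the mutant arrays, against 1550, 1569 and 1675 in the wild-type arrays (limma, adjusted p = 0.453). The aminotransferase BCAT5 averaged 146 ± 15.7 in the mutant and 151 ± 17.9 in the wild type (SD, n = 3), and BCAT6 averaged 25.9 ± 3.49 in the mutant and 32.8 ± 5.30 in the wild type. DHAD, a dihydroxyacid dehydratase, averaged 199 ± 2.50 in the mutant and 188 ± 39.5 in the wild type. None of these 4 passed the test. AHASS2, a regulatory subunit of acetohydroxyacid synthase, was the 1 gene called, at 0.73 times the wild-type level (95% interval 0.62 to 0.86, limma, adjusted p = 0.0160). Its call ended without mutant replicate 2 (limma, adjusted p = 0.0576), wild-type replicate 2 (0.0606) or wild-type replicate 3 (0.0882), and when no variance trend was fitted (0.0847). The leucine-specific synthases, IPMS1 and IPMS2, were not analysed here, nor were IPMI-SSU1 and IMD2, the list's isomerase and dehydrogenase genes. The counts thus do not cover the condensation, isomerisation and oxidative decarboxylation steps that resemble chain elongation.

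Downstream, 5 of 20 genes of core aliphatic glucosinolate synthesis and side chain modification were tested, and 4 of them were called higher and 0 lower, with a median log2 change of 1.18. These 4 rises, 2.03-fold to 3.06-fold, lay within the range of the chain elongation genes. GSTU20, a glutathione transferase, had 3302, 3462 and 3222 in the mutant arrays, against 1164, 1161 and 954 in the wild-type arrays. UGT74B1 and UGT74C1, glucosyltransferases, rose 2.45-fold and 2.26-fold, and the dioxygenase GSL-OH rose 2.03-fold. AOP1, also a dioxygenase gene, averaged 103 ± 14.1 in the mutant and 93.3 ± 14.3 in the wild type and did not pass (limma, adjusted p = 0.624), and AOP3 lay under the limit on all 6 arrays.

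Of the methionine supply and use list, 3 of 15 genes were tested, with 1 called higher, 1 lower and a median log2 change of −0.011. CBL, which makes homocysteine, the precursor of methionine, had 967, 906 and 964 in the mutant arrays, against 434, 516 and 510 in the wild-type arrays, and rose 1.95-fold. MGL, which breaks methionine down, had 35.5, 50.3 and 37.4 in the mutant arrays, against 64.7, 77.5 and 79.9 in the wild-type arrays, 0.55 times the wild-type level (95% interval 0.43 to 0.71, limma, adjusted p = 0.00450). HMT1, a homocysteine methyltransferase, averaged 55.6 ± 8.91 in the mutant and 55.6 ± 2.34 in the wild type.

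Among the regulators, 3 of 10 were tested and 0 were called higher or lower with limma, nor did any reach an unadjusted p under 0.05. Their median log2 change was −0.12. MYC3 and MYC4, basic helix-loop-helix factors of jasmonate signalling that act on glucosinolate genes, averaged 97.1 ± 12.5 and 96.8 ± 18.6 in the mutant, against 94.3 ± 4.66 and 105 ± 20.7 in the wild type (SD, n = 3). SDI2, a repressor of the pathway induced under sulfur deficiency, averaged 130 ± 25.9 in the mutant and 158 ± 13.3 in the wild type (limma, unadjusted p = 0.0501, just above the threshold, adjusted p = 0.211). It passed as lower in the mutant without mutant replicate 1 (limma, adjusted p = 0.0317). The MYB factors of the aliphatic branch, MYB28, MYB29 and MYB76, were not analysed here.

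The genes most like the chain elongation genes in profile were sought among 7439 tested probe sets that name 1 gene. Likeness was the root mean square difference over the 6 arrays between log2 signals centred on the wild-type mean and the median of the 9 genes centred the same way. The nearest was MSRB5, a methionine sulfoxide reductase, at 0.050, with 960, 943 and 920 in the mutant arrays, against 295, 326 and 275 in the wild-type arrays. It lay about as close to the median profile as MAM1 (0.047) and IMD (0.043). These 2 helped to set that profile, and MSRB5 was picked for its closeness to it, so the comparison is a description only. GSTU20 came next at 0.11, then AT3G28510 at 0.13, AT1G21440 at 0.14 and YLS5 at 0.15. AT1G21440 averaged 1246 ± 50.8 in the mutant and 336 ± 25.3 in the wild type, and YLS5 averaged 629 ± 59.0 in the mutant and 217 ± 27.4 in the wild type (SD, n = 3). AT3G28510 was dim, with 19.4 to 20.6 in the wild-type arrays, close to the limit. This measure puts weight on the size of the change, so MAM3 itself, at 1.05, was further from the median than 1104 of the 7439 probe sets.

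The arrays were alike in overall signal, with medians of 32.6 to 34.5 in the mutant and 32.5 to 33.2 in the wild type. The APS kinases have no named probe set in the table used here, so the disrupted genes could not be used to check the genotype labels. Of 6 leaf markers 2 were tested, and both were bright on all arrays. RCA, the Rubisco activase, averaged 6277 ± 729 in the mutant and 6216 ± 916 in the wild type (SD, n = 3). SBPASE, a Calvin cycle enzyme, averaged 2412 ± 214 in the mutant and 3023 ± 167 in the wild type (limma, adjusted p = 0.0245), a call that ended when any array but mutant replicate 1 was left out (0.0583 to 0.0919), with no filter (0.0804) or with no variance trend (0.132). The part of this difference in the results above was not tested. Of 4 root markers 2 had a named probe set, EXPA7 and EXPA18, both under the limit on all 6 arrays, and flower markers were not analysed here.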

How the data were processed

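The file holds the intensities the authors deposited, on a linear scale, with a value for every probe set on every array. They were made with MAS5 and GCOS, per the submitters' processing notes, which give no versions. The authors had scaled the arrays to a common level, a mean of 100.01 once 2% of probe sets are trimmed at either end, so a change of total transcript amount would not be seen. Of 22810 probe sets, 64 controls were left out. Those reaching the 40th percentile of an array on 3 or more of the 6 arrays, 13848, were tested. Signals were taken to log2 without an offset and fitted with limma 3.58.1 (R 4.3.3) with a variance trend and genotype as the factor; Benjamini-Hochberg adjustment covered all tested probe sets, with a threshold of 0.05. Folds and 95% intervals, unadjusted, come from this fit. Simulated data with independent noise for each probe set were used to check its calls and fitted changes, but not its intervals. The number of arrays, 3 per genotype, limits the precision. No 2 arrays were identical.

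Groups and replicate numbers came from sample titles. The members and lists were chosen with earlier results of these data known. Named besides the 9 members were all list genes with a tested probe set that names 1 gene (the brightest of several) and the 5 nearest profiles; AOP3 and the root markers were added as under the limit. Alternatives were quantile normalization, median centring, an offset of 16, no filter or a 60th percentile filter, other variance priors, a replicate block, a threshold of 0.01 and leaving out each array. No sequences are shown.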

Additional observations from a re-analysis of the deposited data

How the results depend on the processing

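All 9 chain elongation genes were called higher under each of the 15 alternatives. Over 126 values of single genes, the log2 change stayed within 0.90 to 1.12 times that with all arrays, and the highest adjusted p was 0.0039 (limma, for BCAT3 with no variance trend); with 1 array left out it was at most 1.85e-04. The count of all called probe sets, 1571 (802 higher, 769 lower), was 880 (507, 373) with no variance trend, 811 (466, 345) at an adjusted p under 0.01, and 1029 to 1585 with 1 array left out (1029 without mutant replicate 3, 1030 without wild-type replicate 3). The stricter threshold lowers the count by construction, and fewer arrays do so in part; the cause of the drop with no trend was not tested.

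Same-numbered arrays deviated together only weakly (correlations 0.082, 0.077 and 0.11), a hint from the data and not the design. Correlations with other numbers were lower (at most −0.0034). Deviations were taken from each genotype's mean, so positive same-number values force negative ones elsewhere on average. The contrast thus adds nothing to the same-number values. With the replicate block 9 of 9 members were called and 1789 probe sets in all.

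Of the 8 pairs, 7 kept their direction in all 9 alternatives run. The largest shift, MAM3 over MAM1, was 1.53 without an offset and 1.25 with the offset of 16. BASS5 over BCAT4 ran between −0.49 and −0.22. MAM1 over BASS5, −0.024 with all arrays, was 0.034 with the offset and −0.14 to 0.089 with 1 array left out. Log2 changes near 0 of uncalled genes changed sign when 1 array was left out: BCAT5 ran between −0.14 and 0.042, DHAD between −0.045 and 0.26, HMT1 between −0.14 and 0.062, MYC3 between −0.054 and 0.13, MYC4 between −0.26 and 0.028 and RCA between −0.054 and 0.14. RCA was also −0.026 with quantile normalization and −0.0072 with median centring.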
